A study of Mus musculus with 32 samples.

Results

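CD11c+ adipose tissue macrophages that lacked A20 were compared with wild-type ones in mice kept on a standard diet (SD). The comparison used 8 of the 32 libraries of the series, 4 from knockout (KO) and 4 from wild-type (WT) mice, chosen by the genotype, diet and population on their labels. KO cells came from C57BL/6J mice with a knockout of A20 restricted to myeloid cells, and WT cells from wild-type C57BL/6J mice. All 8 libraries were made from macrophages sorted from epididymal fat as low for CD206 and high for CD11c, after 12 weeks of SD. Further groups, used only to show where this comparison differed, were CD11c+ KO and CD11c+ WT cells after 12 weeks of high-fat diet (HFD), and CD206+ KO and CD206+ WT cells (high for CD206, low for CD11c) after 12 weeks of SD. Each of these also held 4 libraries. RNA was sequenced in bulk and reads were counted per gene. The labels give no age, leave the Cre driver behind the knockout unnamed, and do not state whether each library is from its own mouse. The p-values therefore measure the spread between these libraries, which may in part be technical.

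A20, the product of Tnfaip3, is a ubiquitin-editing enzyme. It is made in response to NF-kB and in turn switches off the signalling complexes that activate NF-kB below TNF receptors, Toll-like receptors and the interleukin-1 receptor. Among the genes that macrophages make after such signals are type I interferons, which act through their receptor on STAT proteins and interferon regulatory factors and thereby induce a large set of antiviral genes. In adipose tissue, CD11c+ macrophages are known chiefly as the population that grows in obesity, with a mix of inflammatory and lipid-handling genes, and far fewer of them are present in lean fat, where CD206+ cells prevail.

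On SD, antiviral, MHC class I and acute-phase genes were higher in KO cells, and the classical NF-kB cytokines Tnf, Il1b and Il6 were not. Of 13453 genes tested, 3607 passed the threshold (26.8%), 1775 of them higher in KO cells (13.2%) and 1832 lower (13.6%; edgeR quasi-likelihood test, Benjamini-Hochberg adjusted p under 0.05). The median log2 fold change over all genes was -0.02. When the test asked for a change beyond 2-fold, 307 genes were higher in KO cells (2.28%) and 119 lower (0.885%), so the larger changes were mostly increases. All 4 KO libraries lay above all 4 WT libraries for 1577 genes (11.7%), and below them for another 1577 (11.7%). On the first principal component of these 8 libraries, with 49.5% of the variance, KO libraries lay at -51.1 to -33.0 and WT libraries at 38.7 to 50.4. WT replicate 4 stood apart on the second component (50.2, against -23.8 to 16.3 for the other 7). Without it 3506 genes passed, of which 2986 were among the 3607.

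**Figure D1:**
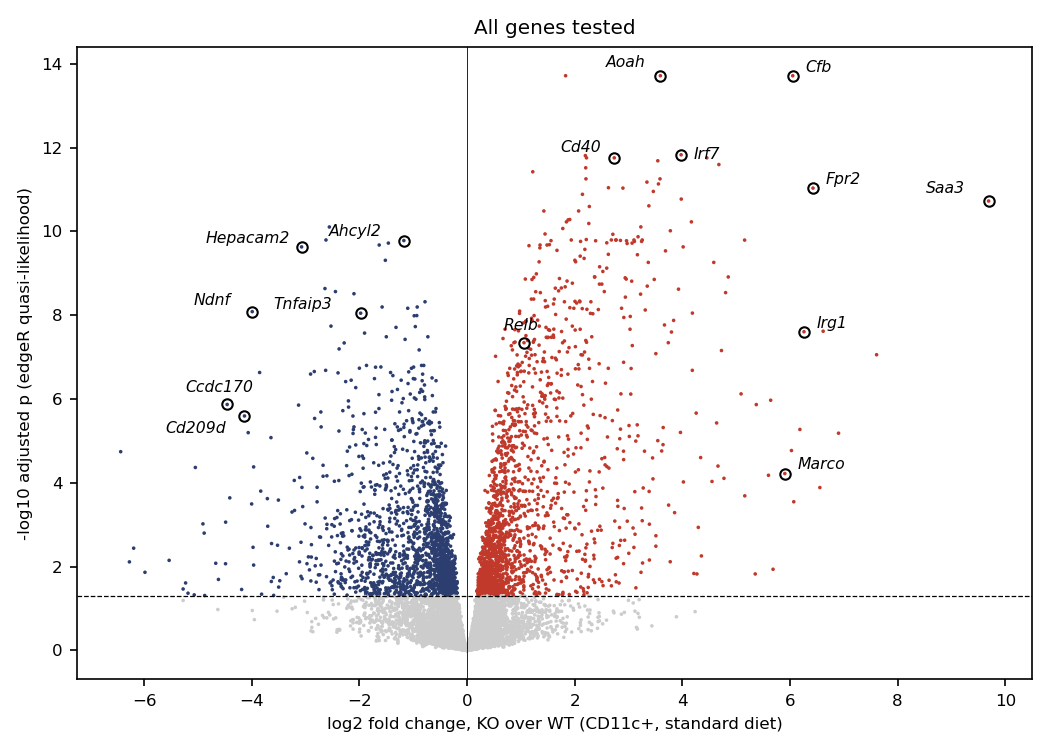
Each point is 1 of the 13453 genes tested, placed by its log2 fold change of KO over WT in CD11c+ cells on SD (horizontal) and by -log10 of its adjusted p (vertical, edgeR quasi-likelihood test). The dashed line marks an adjusted p of 0.05, with genes higher in KO in red, lower in blue and the rest in grey. Labelled genes include Saa3 at 9.69 and Cfb at 6.05 on the right and Ccdc170 at -4.46 on the left, and Tnfaip3 lies at -1.98.

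The deleted gene followed the labels. Tnfaip3 (chromosome 10, 19000910 to 19015410 of GRCm38.p6) had 246, 474, 443 and 322 CPM in KO libraries, against 1349, 1427, 1647 and 1426 CPM in WT libraries (log2 fold change -1.98 ± 0.202, adjusted p = 8.95e-09). The highest KO library reached less than the lowest WT one, yet each KO library kept reads of the gene. Whole-gene counts give no measure of the deleted share of alleles, and transcript from cells that escaped deletion cannot be told apart from transcript of a deleted allele. Lyz2, the lysozyme gene whose promoter commonly drives Cre in myeloid knockouts, had 14089, 13318, 12916 and 11548 CPM in KO libraries, against 28336, 26760.5, 26185 and 28701 CPM in WT libraries (log2 fold change -1.08 ± 0.13, adjusted p = 2.25e-07). All 4 KO libraries were below all 4 WT libraries. Its neighbour and near copy Lyz1 went the other way, with 20496, 17761, 15725 and 12070.02 CPM in KO libraries, against 10963, 5628, 10479 and 11322 CPM in WT libraries (log2 fold change 0.78 ± 0.22, adjusted p = 0.0086). How the authors' counting treated reads that fit both lysozyme genes is not stated, so these levels are uncertain. On HFD, Lyz2 averaged 12330.0000 ± 1679 CPM in KO cells against 13870.0000 ± 1453 CPM in WT cells (log2 fold change -0.17 ± 0.13, adjusted p = 0.322), and the genotype difference was larger on SD (interaction -0.91 ± 0.18, adjusted p = 0.000328).

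The sorted cells kept a macrophage identity in both genotypes. Itgax, which encodes CD11c, had 209, 243, 218 and 269 CPM in KO libraries, against 218, 200.3, 239 and 291 CPM in WT libraries and did not pass the test (log2 fold change -0.01 ± 0.28, adjusted p = 0.982). The pan-macrophage genes Cd68 (0.08 ± 0.09) and Spi1, which encodes the myeloid transcription factor PU.1 (0.09 ± 0.08), did not pass either. Of 21 sort and identity genes, 11 were higher in KO cells and 1 lower. Those that rose included Adgre1, which encodes F4/80 (0.77 ± 0.13), the phagocytic receptor Mertk (0.99 ± 0.21), the high-affinity Fc receptor Fcgr1 (2.01 ± 0.24) and the fractalkine receptor Cx3cr1 (2.06 ± 0.26). Mrc1, which encodes CD206, averaged 589 ± 92.01 CPM in KO cells against 453 ± 35.9 CPM in WT cells (log2 fold change 0.38 ± 0.11, adjusted p = 0.0134), and without KO replicate 1 it no longer passed (0.28). Cd68 passed without WT replicate 4 (0.22). The macrophage transcription factors Maf (1.85 ± 0.14), Irf8 (1.62 ± 0.22) and Nr1h3, the liver X receptor alpha (2.19 ± 0.19), were also higher. Cd163, the haemoglobin scavenger receptor, was the member that fell, with 26.3, 16.1, 19.8 and 13.3 CPM in KO libraries, against 124, 145, 136 and 135 CPM in WT libraries (log2 fold change -2.84 ± 0.35, adjusted p = 2.21e-07).

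Antiviral genes rose together. Of 57 interferon-stimulated genes tested, 53 were higher in KO cells and 0 lower, with a median log2 fold change of 1.64 against -0.02 over all genes. All 16 interferon-inducible GTPases tested were higher (median 2.38), as were all 20 genes of MHC class I, its peptide loading and the immunoproteasome (median 1.13). RefSeq's GRCm38.p6 promoter windows, which run from 250 bases before to 50 bases after a transcript start of the gene, hold matches to the core of the interferon-stimulated response element in several of them. The core was searched as GAAANNGAA on both strands, and 2812 of all 32851 windows hold it (8.56%). An NF-kB motif was searched as GGGANTTTC on both strands, and 365 of all windows hold it (1.11%). Windows were matched for 43 of the 57 antiviral genes, 10 of the 16 GTPases, 15 of the 20 MHC class I genes and 13 of 21 acute-phase genes. The share of windows with a match was not counted for any list. The windows of 4 of the genes described below are shown as examples, 5′ to 3′ on the gene's strand, with matches in capitals. All 4 hold a core match, and no window without a match is shown. Saa3 is on the acute-phase list and not on the interferon or MHC class I lists. Whether the element acts on any of these genes was not tested. A match is a string of letters and not a measured binding site. These 4 windows were chosen singly, so they do not show whether matches are more frequent in these lists than in all windows.
Isg15 (chr4:156200769-156201068, minus strand), where 3 core matches overlap: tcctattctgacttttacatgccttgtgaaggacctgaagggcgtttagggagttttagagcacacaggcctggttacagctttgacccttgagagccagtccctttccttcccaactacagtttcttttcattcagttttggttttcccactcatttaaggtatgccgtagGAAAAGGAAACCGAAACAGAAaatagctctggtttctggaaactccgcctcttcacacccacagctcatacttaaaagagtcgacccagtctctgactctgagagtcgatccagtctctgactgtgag
Ifit1 (chr19:34640639-34640938, plus strand), with 3 core matches, of which a pair overlaps: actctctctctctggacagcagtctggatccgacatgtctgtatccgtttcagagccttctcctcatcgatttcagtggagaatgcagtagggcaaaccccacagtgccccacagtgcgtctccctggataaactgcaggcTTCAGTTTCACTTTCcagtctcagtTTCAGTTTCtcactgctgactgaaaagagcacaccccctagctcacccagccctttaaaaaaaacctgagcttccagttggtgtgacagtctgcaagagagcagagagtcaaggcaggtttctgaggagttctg
B2m (chr2:122147437-122147736, plus strand), with 1 core match and 1 NF-kB match: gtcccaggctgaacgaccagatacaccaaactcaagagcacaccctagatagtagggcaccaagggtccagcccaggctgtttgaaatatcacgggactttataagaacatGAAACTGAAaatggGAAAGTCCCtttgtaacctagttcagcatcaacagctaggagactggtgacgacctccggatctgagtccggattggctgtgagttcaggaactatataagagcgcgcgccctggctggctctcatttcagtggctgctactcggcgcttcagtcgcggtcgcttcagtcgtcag
Saa3 (chr7:46715627-46715926, minus strand), with 1 core match, where RefSeq's whole gene span reaches further upstream than this transcript start, to 46719615: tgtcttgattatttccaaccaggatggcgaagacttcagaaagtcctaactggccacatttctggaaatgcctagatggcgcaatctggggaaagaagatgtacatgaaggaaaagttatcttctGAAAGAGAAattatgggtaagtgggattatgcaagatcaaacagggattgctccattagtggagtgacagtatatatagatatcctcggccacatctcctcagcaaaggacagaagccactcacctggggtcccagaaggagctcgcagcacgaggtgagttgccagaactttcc

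The regulators of the interferon response were among the genes that rose. Irf7, the factor that amplifies type I interferon production, had 240.5, 211, 322 and 304 CPM in KO libraries, against 13.9, 25.2, 13.8 and 15.4 CPM in WT libraries (log2 fold change 3.98 ± 0.25, adjusted p = 1.48e-12). Every KO library held several times the highest WT level. Ikbke, a kinase that activates interferon regulatory factors, averaged 133 ± 27.4 CPM in KO cells against 16.97 ± 7.15 CPM in WT cells (log2 fold change 2.97 ± 0.25, adjusted p = 1.94e-10). The KO and WT libraries of both genes were fully separated.

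Effector genes of the same response followed. Isg15, a ubiquitin-like modifier, had 34.4, 42.7, 54.8 and 57.9 CPM in KO libraries, against 9.001, 9.26, 8.23 and 10.3 CPM in WT libraries (log2 fold change 2.37 ± 0.22, adjusted p = 1.22e-09). Ifit1, which binds foreign RNA caps, had 32.6, 39.6, 56.9 and 68.3 CPM in KO libraries, against 5.05, 4.82, 6.31 and 4.95 CPM in WT libraries (log2 fold change 3.22 ± 0.31, adjusted p = 3.14e-09). In both, each KO library exceeded each WT library several-fold. Other members with large changes were Ifi44 (3.798 ± 0.41), the oligoadenylate synthetase Oas1g (3.78 ± 0.300) and Ifi205 (3.74 ± 0.42), while Mx1 rose less (1.42 ± 0.29). Mx1 is known as an antiviral GTPase, but RefSeq lists it as a transcribed pseudogene in the C57BL/6J reference. Among the interferon-inducible GTPases, which attack the vacuoles of intracellular microbes, Gbp6 rose most (4.19 ± 0.43), followed by Iigp1 (3.51 ± 0.404) and Gbp10 (3.51 ± 0.88). Gbp10 reached 0.83 CPM at most. Gbp2 was abundant, with 474, 345, 502 and 672 CPM in KO libraries, against 56.1, 96.5, 54.4 and 130.5 CPM in WT libraries (log2 fold change 2.56 ± 0.36, adjusted p = 2.79e-06). Several of these genes have near-identical copies (the Gbp, Oas and Ifit clusters), so the assignment of reads to copies is uncertain.

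Antigen presentation divided by class. B2m, the light chain of MHC class I, had 4611, 3222, 3789 and 4055 CPM in KO libraries, against 1157, 1487, 1038 and 1138 CPM in WT libraries (log2 fold change 1.701 ± 0.16, adjusted p = 2.62e-09). The heavy chain H2-K1 (1.51 ± 0.16), the peptide transporter Tap1 (1.72 ± 0.25), the immunoproteasome subunit Psmb8 (0.92 ± 0.11) and the class I transactivator Nlrc5 (2.29 ± 0.23) rose with it. Of 16 MHC class II genes, 3 were higher and 3 lower, and the median was 0.07. The class II chain H2-Ab1 averaged 14920.0000 ± 1616 CPM in KO cells against 17750.0000 ± 2136 CPM in WT cells (log2 fold change -0.25 ± 0.13, adjusted p = 0.169), and neither Cd74 (-0.23 ± 0.15) nor the class II transactivator Ciita (0.09 ± 0.12) passed. H2-DMb2, part of the editor that loads class II with peptide, fell instead, with 42.7, 58.5, 43.2 and 30.6 CPM in KO libraries, against 135, 104, 126 and 198 CPM in WT libraries (log2 fold change -1.69 ± 0.26, adjusted p = 1.22e-05). Its 4 KO libraries lay wholly below the WT ones. The lysosomal thiol reductase Ifi30 (1.22 ± 0.17) and cathepsin S, Ctss (0.84 ± 0.13), both involved in preparing class II peptides, rose, as did the low-level chain gene H2-Eb2 (3.297 ± 0.53).

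**Figure D2:**
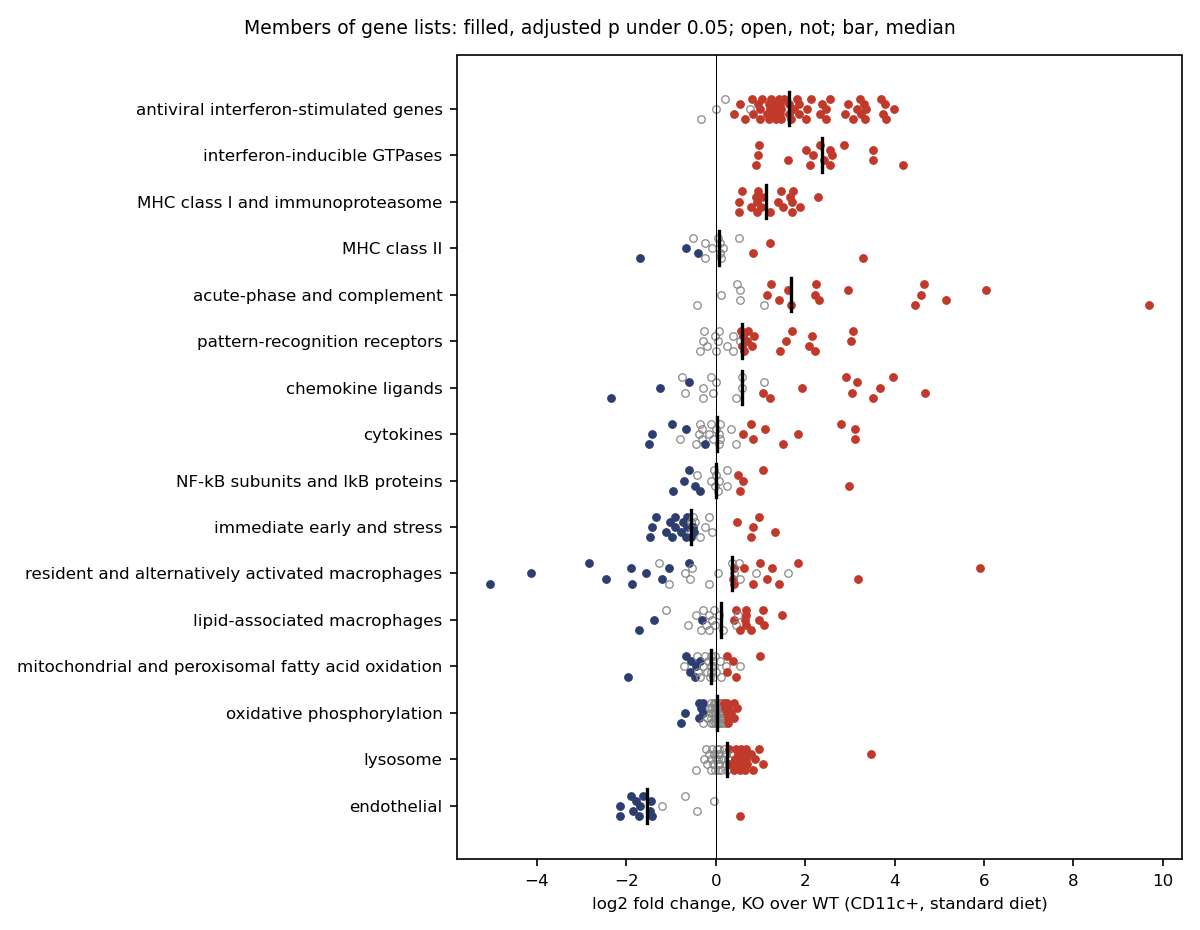
Each point is a tested member of a gene list (rows), placed by its log2 fold change of KO over WT in CD11c+ cells on SD. Filled points passed an adjusted p of 0.05 (red higher, blue lower in KO), open points did not, and the bar is the median of the row. The interferon and MHC class I lists lie right of 0 (medians 1.64, 2.38 and 1.13), the endothelial list lies mostly left of it (median -1.54), and fatty acid oxidation (-0.12) and oxidative phosphorylation (0.03) centre near it.

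The largest single increases were in secreted acute-phase and complement proteins and in receptors for formylated peptides. Of 21 acute-phase and complement genes tested, 15 were higher in KO cells and 0 lower (median 1.67). Saa3, a serum amyloid A made by macrophages and fat, had 397, 119.8, 272 and 216 CPM in KO libraries, against 0.136, 0.868, 0.0530 and 0.0650 CPM in WT libraries (log2 fold change 9.69 ± 0.71, adjusted p = 1.88e-11), the largest change among genes that reached 10 CPM in either group. It was barely detected in WT libraries, so its fold change is imprecise although the groups are far apart. Complement factor B, Cfb, had 1109.8, 568, 1018 and 974 CPM in KO libraries, against 7.23, 20.2, 9.62 and 18.6 CPM in WT libraries (log2 fold change 6.05 ± 0.31, adjusted p = 1.92e-14). C3, the central complement component, had 849, 622, 757 and 851 CPM in KO libraries, against 32.5, 39.8, 26.5 and 29.4 CPM in WT libraries (log2 fold change 4.58 ± 0.405, adjusted p = 5.49e-10). In both complement genes the KO libraries lay an order of magnitude above the WT ones. Haptoglobin, Hp (5.16 ± 0.42), and the pentraxin Ptx3 (4.66 ± 0.79) rose too, and C1qa, of the classical pathway, rose by 1.61 ± 0.16.

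Fpr1 and Fpr2, receptors by which phagocytes sense bacterial and mitochondrial formyl peptides, were near 0 in WT cells and clearly present in KO cells. Fpr2 had 47.2, 24.1, 39.8 and 57.3 CPM in KO libraries, against 0.227, 0.8200, 0.321 and 0.586 CPM in WT libraries (log2 fold change 6.43 ± 0.45, adjusted p = 9.24e-12), and Fpr1 had 21.5, 12.6, 25.3 and 46.8 CPM in KO libraries, against 0.0450, 0.145, 0 and 1.04 CPM in WT libraries (log2 fold change 6.62 ± 0.71, adjusted p = 2.41e-08). No WT library came near the lowest KO library in either gene. Irg1, the enzyme that makes itaconate, had 325, 229.8, 328 and 630.5 CPM in KO libraries, against 1.59, 2.65, 3.69 and 12.7 CPM in WT libraries (log2 fold change 6.26 ± 0.68, adjusted p = 2.48e-08). Nos2, the inducible nitric oxide synthase, averaged 19.7 ± 15.9 CPM in KO cells against 0.8105 ± 0.334 CPM in WT cells (log2 fold change 4.55 ± 0.82, adjusted p = 9.3e-05), and the cationic amino acid transporter Slc7a2 rose by 3.01 ± 0.44. Arg1, the arginase that competes for the same substrate, was lower (log2 fold change -2.46 ± 0.68, adjusted p = 0.00742) at 0.975 to 2.89 CPM in KO libraries and 1.07 to 20.5 CPM in WT libraries, which overlap, and without WT replicate 2 it did not pass (-1.75). The scavenger receptor Marco (5.904 ± 1.03), the membrane-bound metalloproteinase Mmp14 (4.804 ± 0.46), the orphan receptor gene Gpr162 (4.85 ± 0.44) and the surface protein gene Ly6i (4.64 ± 0.67) complete, with the chemokine Ccl5, the 12 largest increases.

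**Figure D3:**
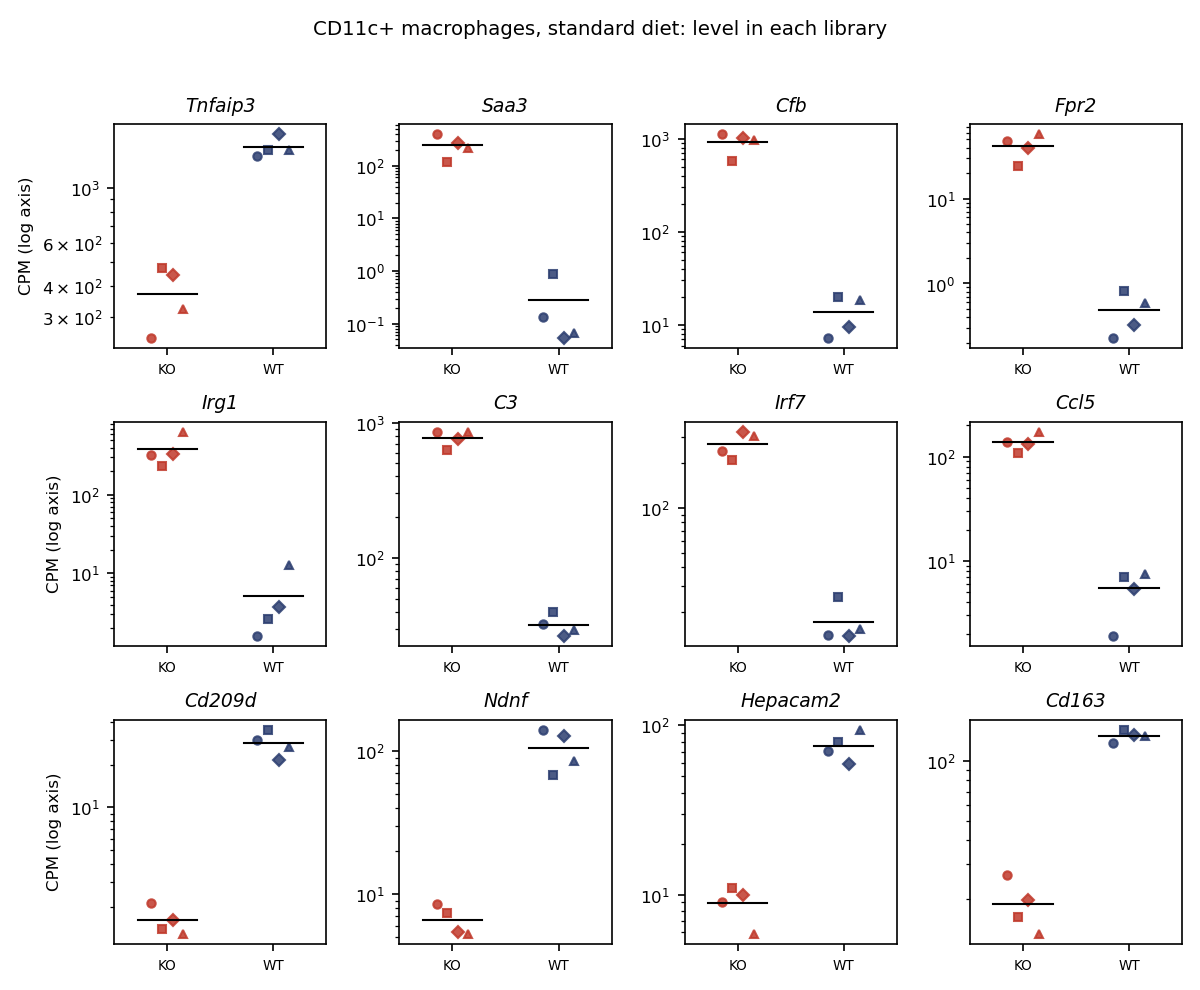
Levels of 12 genes in CPM (log axis) in the 4 KO (left, red) and 4 WT (right, blue) CD11c+ libraries on SD, with the replicate number shown by the symbol (circle 1, square 2, diamond 3, triangle 4) and the group mean by a line. The 2 groups do not overlap in any of the 12 genes, with KO below WT for Tnfaip3, Cd209d, Ndnf, Hepacam2 and Cd163 and above it for the other 7.

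Sensors of microbes rose beside them. Of 28 pattern-recognition receptor genes, 16 were higher in KO cells and 0 lower (median 0.60). Clec4e, which encodes the glycolipid receptor Mincle, had 519, 553, 599 and 651 CPM in KO libraries, against 76.3, 72.5, 85.9 and 49.7 CPM in WT libraries (log2 fold change 3.03 ± 0.32, adjusted p = 2.16e-08). Its partner lectins Clec4n, which encodes Dectin-2 (3.06 ± 0.28), and Clec4d (2.14 ± 0.28) rose with it, as did the lipopeptide receptor Tlr1 (2.22 ± 0.14) and the RNA receptor Tlr7 (1.56 ± 0.13). Among 7 Fc receptor genes 2 were higher, Fcgr4 (2.102 ± 0.22) and Fcgr1, and 0 lower (28.6% called, against 26.8% of all genes).

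The NF-kB pathway itself moved in both directions. Of 19 genes for NF-kB subunits and IkB proteins, 5 were higher and 5 lower (median 0.00). Relb, a subunit of the alternative pathway, had 121, 123, 126 and 139.6 CPM in KO libraries, against 53.7, 61.003, 60.1 and 69.97 CPM in WT libraries (log2 fold change 1.06 ± 0.12, adjusted p = 4.53e-08), and its partner Nfkb2 rose by 0.62 ± 0.13. Neither Nfkb1 (0.24 ± 0.12) nor Bcl3 (0.24 ± 0.15) passed the test. Nfkbia, which encodes the inhibitor IkB alpha and is itself a rapid NF-kB target, had 898, 949.96, 920.2 and 739 CPM in KO libraries, against 1194, 1273, 1421 and 1458 CPM in WT libraries (log2 fold change -0.61 ± 0.11, adjusted p = 0.00011). The nuclear IkB proteins Nfkbiz (-0.71 ± 0.16) and Nfkbid (-0.95 ± 0.203) were lower as well, all with KO libraries wholly below WT ones. Of 22 ubiquitin editors and TNF receptor adaptors, 7 were higher and 4 lower. Tnip1, an A20-binding inhibitor of NF-kB, averaged 78.8 ± 5.06 CPM in KO cells against 34.03 ± 4.48 CPM in WT cells (log2 fold change 1.21 ± 0.13, adjusted p = 1.35e-08), whereas the related Tnip3 was lower (log2 fold change -0.66 ± 0.24, adjusted p = 0.0447). That call was lost without any of KO replicates 1, 3 and 4 or WT replicates 1, 2 and 3, at -0.64 to -0.56. The adaptor Traf1 (0.81 ± 0.18), the TNF receptor Tnfrsf1b (0.73 ± 0.14) and the ubiquitin ligase Birc2 (0.71 ± 0.13) rose, while Birc3 (0.27 ± 0.16) and the deubiquitinase Cyld (-0.09 ± 0.08) did not pass. Of 23 cell death and inflammasome genes 8 were higher and 2 lower, led by the death receptor Fas (2.596 ± 0.22) and the nucleic acid sensor Zbp1 (2.18 ± 0.25), with the caspases Casp4 (1.25 ± 0.15) and Casp1 (0.98 ± 0.099).

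Tnf, Il1b and Il6, all classical NF-kB cytokines, did not share the increase, while some other cytokine genes rose. Of 30 cytokine genes tested, 9 were higher and 5 lower (median 0.03). Tnf had 150.5, 232, 210.3 and 199 CPM in KO libraries, against 164, 211, 319 and 288 CPM in WT libraries, which overlap (log2 fold change -0.31 ± 0.24, adjusted p = 0.381). Il1b had 586, 1055, 861 and 517 CPM in KO libraries, against 1554, 1146, 1439.6 and 1087 CPM in WT libraries (log2 fold change -0.79 ± 0.31, adjusted p = 0.0567), with KO libraries below WT ones and no pass at the threshold. Il6 was lower in KO cells, with 95.04, 179, 142 and 54.5 CPM in KO libraries, against 302, 237, 439 and 337 CPM in WT libraries (log2 fold change -1.48 ± 0.36, adjusted p = 0.00235). Each of its KO libraries was under each WT library. The anti-inflammatory Il10 was higher at low level (log2 fold change 0.78 ± 0.27, adjusted p = 0.0315), and Il1rn, the interleukin-1 receptor antagonist, did not pass (0.105 ± 0.28). Il10 no longer passed without KO replicates 2 or 3 or WT replicates 1, 3 or 4 (0.64 to 0.77), and Il1b passed without KO replicate 2 (-1.001) and in a fit of the 8 libraries alone (-0.79). Il12b, the p40 chain of interleukins 12 and 23, had 0.727, 12.5, 15.5 and 7.83 CPM in KO libraries, against 0.227, 1.88, 1.71 and 0.326 CPM in WT libraries (log2 fold change 3.12 ± 0.73, adjusted p = 0.00169). KO replicate 1 lay within the WT range for this gene. Il27 (3.12 ± 0.59) and Tnfsf15 (2.802 ± 0.56) rose at low levels, as did the activin subunit Inhba (1.83 ± 0.51).

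Chemokines were induced selectively. Of 24 chemokine ligand genes tested, 10 were higher and 3 lower (median 0.60). Ccl5, which draws T cells and monocytes, had 139, 109, 132 and 172 CPM in KO libraries, against 1.91, 6.99, 5.399 and 7.56 CPM in WT libraries (log2 fold change 4.68 ± 0.31, adjusted p = 2.53e-12). The interferon-gamma-inducible T-cell attractant Cxcl9 had 113, 83.2, 109 and 186 CPM in KO libraries, against 8.59, 22.9, 11.1 and 23.1 CPM in WT libraries (log2 fold change 2.91 ± 0.48, adjusted p = 2.8e-05). In both, the KO libraries were separated from the WT libraries. The B-cell attractant Cxcl13 (3.96 ± 0.59) and Ccl12 (3.67 ± 0.39), a ligand of Ccr2, rose, and Cxcl11 (3.51 ± 0.83), which RefSeq lists as a transcribed pseudogene in C57BL/6J, rose at a low level. Cxcl10 had 169, 149.8, 186 and 373 CPM in KO libraries, against 92.4, 85.9, 96.7 and 144 CPM in WT libraries and fell just short of the threshold (log2 fold change 1.07 ± 0.41, adjusted p = 0.0501), and Ccl2 did not pass (0.45 ± 0.202). Cxcl10 passed without KO replicates 1 or 2 or WT replicate 4 (1.19 to 1.27), and in a fit of the 8 libraries alone both Cxcl10 (1.08) and Ccl2 (0.46) passed. Ccl17, a chemokine induced by interleukin-4, was lower (log2 fold change -2.34 ± 0.54, adjusted p = 0.00161), with 1.35, 9.703, 4.12 and 2.69 CPM in KO libraries, against 26.5, 36.3, 9.73 and 18.04 CPM in WT libraries. KO libraries were all below WT ones. Of 20 chemoattractant receptor genes 8 were higher and 1 lower, with Cmklr1, the chemerin receptor (1.57 ± 0.198), beside Fpr1, Fpr2 and Cx3cr1.

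Co-stimulatory genes were divided. Of 15 co-stimulation and checkpoint ligand genes 5 were higher and 6 lower. Cd40, through which T cells activate macrophages, had 118, 125, 124 and 170.4 CPM in KO libraries, against 17.3, 20.3, 21.9 and 21.4 CPM in WT libraries (log2 fold change 2.74 ± 0.17, adjusted p = 1.75e-12), with a wide gap between the groups. The checkpoint ligands Cd274, which encodes PD-L1 (2.24 ± 0.33), and Pdcd1lg2, which encodes PD-L2 (1.84 ± 0.42), rose, Cd86 did not pass (-0.03 ± 0.12), and Cd24a fell to 61.5 ± 14.3 CPM in KO cells against 268 ± 22.2 CPM in WT cells (log2 fold change -2.12 ± 0.299, adjusted p = 2.55e-06). Of 30 interferon regulatory factor, STAT and SOCS genes 9 were higher and 7 lower. Irf4, which directs alternative activation downstream of interleukin-4, was among the lower ones, with 47.3, 63.4, 42.2 and 39.5 CPM in KO libraries, against 165, 136, 167 and 130.4 CPM in WT libraries (log2 fold change -1.64 ± 0.22, adjusted p = 1.69e-06). Its 4 KO libraries lay under all WT libraries.

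The genes that fell most belonged to no single list. The 12 largest decreases among genes with at least 10 CPM in WT cells and separate libraries were Ccdc170, Cd209d, Sv2b, Ndnf, Sec16b, Thsd4, Akr1c18, Serpinb10, Hepacam2, Upb1, Col4a2 and Cd163, with log2 fold changes from -4.46 to -2.84. Cd209d, a C-type lectin of the DC-SIGN family, had 2.13, 1.39, 1.61 and 1.296 CPM in KO libraries, against 29.5, 35.1, 21.5 and 26.7 CPM in WT libraries (log2 fold change -4.14 ± 0.58, adjusted p = 2.54e-06). Ndnf, a secreted neuron-derived factor, had 8.46, 7.34, 5.45 and 5.28 CPM in KO libraries, against 141, 68.2, 127 and 85.7 CPM in WT libraries (log2 fold change -3.99 ± 0.405, adjusted p = 8.21e-09). Every KO library held a small part of the lowest WT level in both. Hepacam2, an immunoglobulin-family adhesion protein, had 9.03, 11.003, 9.95 and 5.88 CPM in KO libraries, against 70.1, 79.4, 59.2 and 93.9 CPM in WT libraries (log2 fold change -3.07 ± 0.26, adjusted p = 2.34e-10), and Upb1, an enzyme of pyrimidine breakdown, averaged 12.8 ± 4.904 CPM in KO cells against 95.95 ± 12.7 CPM in WT cells (log2 fold change -2.91 ± 0.36, adjusted p = 2.54e-07). Col4a2, a basement membrane collagen that vessel cells make, averaged 5.44 ± 2.26 CPM in KO cells against 39.6 ± 14.95 CPM in WT cells (log2 fold change -2.87 ± 0.47, adjusted p = 2.61e-05).

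Genes of alternative activation split. Of 35 genes of resident or alternatively activated macrophages, 12 were higher and 10 lower (median 0.36). Retnla, a secreted protein induced by interleukin-4, had 8712, 4752, 3752 and 2618 CPM in KO libraries, against 21431, 14561, 13137 and 23762 CPM in WT libraries (log2 fold change -1.88 ± 0.42, adjusted p = 0.00113). Its 4 KO libraries were below the WT ones. The lectins Cd209b (-5.05 ± 0.86) and Cd209d fell, and Mrc1, Igf1 (0.83 ± 0.22) and the phosphatidylserine receptor Timd4 (3.18 ± 0.48) rose. Marco, also on this list, is known to be induced by bacterial products. Lyve1, a marker of vessel-associated macrophages, stayed at 0.748 to 6.59 CPM in KO libraries and 1.37 to 5.55 CPM in WT libraries and did not pass. The interleukin-33 receptor Il1rl1, an innate lymphoid marker that macrophages can also carry, fell to 48.9 ± 14.1 CPM in KO cells against 183 ± 26.9 CPM in WT cells (log2 fold change -1.904 ± 0.21, adjusted p = 2.67e-08).

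Lipid genes changed in places and without a common direction. Of 30 genes of lipid-associated macrophages, the Trem2-dependent state of obese fat, 12 were higher and 3 lower (median 0.12). Most of the higher members, such as Ctsb, Ctsd, Ctsl, Lamp1, Lamp2 and Cd63, are also on the lysosomal list described below. Trem2 itself had 51.6, 68.2, 48.6 and 77.4 CPM in KO libraries, against 34.6, 54.7, 63.6 and 95.8 CPM in WT libraries (log2 fold change -0.01 ± 0.24, adjusted p = 0.977), and Gpnmb (0.16 ± 0.51), Spp1 (0.504 ± 0.47), Cd9 (-0.61 ± 0.25) and Apoe (0.46 ± 0.19) did not pass either. The groups overlap in all 5. Cd9 passed without KO replicate 2 (-0.82) or WT replicate 4 (-0.70), and Apoe without KO replicate 3 (0.59) or WT replicates 2 or 4 (0.61 and 0.60). The phosphatase Acp5 (1.48 ± 0.202) and the cathepsin inhibitor Cstb (1.09 ± 0.11) rose, and Fabp4 (-1.72 ± 0.33) and the fusion protein Dcstamp (-1.38 ± 0.23) fell. Of 19 fatty acid uptake and scavenging genes 4 were higher and 3 lower. Cd36 had 1304, 1189.6, 1058 and 997 CPM in KO libraries, against 1264, 1792, 1606 and 874 CPM in WT libraries (log2 fold change -0.28 ± 0.19, adjusted p = 0.28), and Lpl, lipoprotein lipase, did not pass (-0.15 ± 0.23). Msr1, scavenger receptor A, had 105, 125, 128 and 148 CPM in KO libraries, against 21.5, 36.8, 31.8 and 30.3 CPM in WT libraries (log2 fold change 2.07 ± 0.16, adjusted p = 3.25e-11), with KO libraries all above WT ones. The acyl-CoA synthetase Acsl1 rose (1.78 ± 0.198) and the fatty acid transporter Slc27a3 fell (-1.92 ± 0.32).

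Fatty acid metabolism is named in the title of the study, and its oxidation genes showed small changes on SD. Of 33 genes of mitochondrial and peroxisomal fatty acid oxidation, 5 were higher and 7 lower (median -0.12), 36.4% called against 26.8% of all genes. Cpt1a, the entry point of long-chain fatty acids, had 339, 192, 302 and 295 CPM in KO libraries, against 331, 316, 329 and 460.1 CPM in WT libraries (log2 fold change -0.35 ± 0.17, adjusted p = 0.13), which overlap. Acadm (-0.18 ± 0.08) and Hadha (-0.11 ± 0.08), enzymes of the beta-oxidation spiral, did not pass, although Acadm did without KO replicate 1 (-0.22) or WT replicate 4 (-0.21). The carnitine enzymes and carrier Crat (-0.66 ± 0.103) and Slc25a20 (-0.57 ± 0.13) fell, as did the kinase Pdk4 (-1.96 ± 0.56), and the coactivator Ppargc1b rose (0.98 ± 0.18). In 19 genes of lipid droplets 3 were higher and 5 lower, among them Hilpda (-1.295 ± 0.19) and the lipase Mgll (-1.54 ± 0.37), both lower, while the droplet coat Plin2 did not pass (-0.04 ± 0.21). Of 17 genes of cholesterol efflux and liver X receptor targets 5 were higher and 1 lower, with the exporter Abca1 at 1.301 ± 0.23 and Abcg1, which passed only without WT replicate 4 (0.52), at 0.33 ± 0.18. Of 30 sterol and fatty acid synthesis genes 8 were higher and 1 lower (30% called), including Scd2 (1.81 ± 0.39) but not Fasn (-0.17 ± 0.24).

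Energy metabolism genes were called about as often as all genes. Of 60 oxidative phosphorylation genes 11 were higher and 7 lower (30% called, against 26.8% of all genes, median 0.03), and 0 passed beyond 2-fold. The respiratory chain subunits Ndufa6 (-0.78 ± 0.13) and Ndufa4 (-0.68 ± 0.12) fell. Succinate dehydrogenase subunits Sdhb (0.41 ± 0.07) and Sdhc (0.48 ± 0.07) rose. Of 18 tricarboxylic acid cycle genes 5 were higher and 1 lower (33.3%), and of 32 glycolysis and hypoxia genes 7 were higher and 2 lower (28.1%). The glucose transporter Slc2a3 fell (-1.89 ± 0.28), while Slc2a1 (0.43 ± 0.29), Hk2 (-0.18 ± 0.29) and Ldha (0.09 ± 0.099) did not pass. Lysosomal genes were shifted upward in a larger share, with 22 of 50 higher and 0 lower (median 0.24). Several of these are also on the lipid-associated list, so the counts of these lists overlap. Ctsb, cathepsin B, had 8636, 6292, 6733 and 7337 CPM in KO libraries, against 2902, 3952, 3128 and 4056 CPM in WT libraries (log2 fold change 1.05 ± 0.11, adjusted p = 1.53e-08), with the groups apart, and Lgmn (0.88 ± 0.13) and Cd63 (0.97 ± 0.14) rose as well. Tfec, a transcription factor of the lysosomal MiT family, rose at a low level (3.46 ± 0.25).

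Remaining lists gave mixed counts. Of 44 cell cycle genes 12 were higher and 0 lower (27.3% called, against 26.8% of all genes). The proliferation marker Mki67 did not pass (0.62 ± 0.301) except without KO replicate 1 (0.84) or WT replicate 3 (0.90). Of 20 antioxidant and NADPH oxidase genes 5 were higher and 4 lower, led by Cybb, the catalytic subunit of the phagocyte oxidase (1.49 ± 0.19), and mitochondrial superoxide dismutase, Sod2 (1.43 ± 0.22). Of 14 matrix metalloproteinases and inhibitors 4 were higher and 3 lower. Mmp9, gelatinase B, had 451, 209, 249 and 252 CPM in KO libraries, against 12.5, 18.4, 17.4 and 33.3 CPM in WT libraries (log2 fold change 3.84 ± 0.400, adjusted p = 1.33e-08), a clear separation, whereas Mmp13 fell (-2.01 ± 0.47). Of 12 iron and haem genes 7 were higher and 2 lower, with the transferrin receptor Tfrc at 1.06 ± 0.22 and biliverdin reductase, Blvrb, at 1.25 ± 0.14. Of 15 prostaglandin and leukotriene genes 6 were higher and 5 lower, with prostaglandin E synthase, Ptges, higher (2.92 ± 0.595) and the constitutive cyclooxygenase Ptgs1 lower (-1.32 ± 0.29). Of 8 itaconate, nitric oxide and arginine genes 4 were higher and 1 lower.

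Immediate early genes, which respond to handling of cells as well as to signals in tissue, were lower in KO libraries. Of 29 such genes 5 were higher and 16 lower (median -0.55). Nr4a1, an orphan nuclear receptor, had 1142, 1239.9, 1133 and 873 CPM in KO libraries, against 2799, 2462, 2790.1 and 3065 CPM in WT libraries (log2 fold change -1.34 ± 0.19, adjusted p = 3.9e-06), and Egr3 (-1.47 ± 0.302), Nr4a3 (-1.42 ± 0.37) and Atf3 (-0.49 ± 0.14) fell, while Fos (-0.07 ± 0.204) and Egr1 (-0.55 ± 0.24) did not pass. The heat shock gene Hspa1b rose (1.32 ± 0.39), but did not pass without KO replicate 3 (1.02), and without that library 3 members were higher. Nfkbia and Nfkbiz are induced on the same time scale. The part that handling played in any of these differences, or in that of Il6, was not tested.

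Genes of other cells also differed between the libraries. Of 16 endothelial markers 11 were lower in KO libraries and 1 higher (median -1.54), and without WT replicate 2 the count of lower ones was 6. Their summed level was 101 to 135 CPM in KO libraries and 120 to 257 CPM in WT libraries, which overlap. Of 20 stromal markers 6 were lower and 0 higher (30% called, against 26.8% of all genes), summing to 667 to 836 CPM in KO libraries and 820 to 1020 CPM in WT libraries, most of it Gsn. Of 16 monocyte markers 8 were higher and 2 lower, including Hp, Ly6c2 (3.62 ± 0.58) and Plac8 (3.14 ± 0.48), yet their sum was 7840 to 10800 CPM in KO libraries and 11200 to 20400 CPM in WT libraries because Fn1 outweighs the rest. Of 18 dendritic cell markers 6 were higher and 5 lower (sum 1560 to 1720 CPM in KO, 1840 to 2210 CPM in WT), with Irf4 and Cd209a (-1.898 ± 0.47) lower and Itgae (3.100 ± 0.78) higher, and Zbtb46 and Flt3, their defining genes, did not pass. Of 13 migratory dendritic cell markers 7 were higher and 2 lower (sum 918 to 1140 CPM in KO, 609 to 803 CPM in WT), with Fscn1 at 1.58 ± 0.31 and Ccr7, which did not pass, at 0.31 ± 0.43. Marcksl1 alone gave most of that sum, with 678 to 836 CPM in KO and 421 to 481 CPM in WT libraries.

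Lymphocyte genes were scarce. Of 16 T-cell markers 4 were higher and 2 lower. Cd4, which some macrophages also carry, had 18.6, 18.5, 13.7 and 26.1 CPM in KO libraries, against 1.09, 2.94, 2.57 and 2.41 CPM in WT libraries (log2 fold change 3.101 ± 0.26, adjusted p = 1.6e-10), and Cd8b1 had 0.727, 2.46, 1.75 and 10.3 CPM in KO libraries, against 0.182, 0.434, 0.267 and 0.586 CPM in WT libraries (log2 fold change 3.39 ± 0.75, adjusted p = 0.000974), with KO replicate 4 far above the other KO libraries. Their sum was 94.2 to 140 CPM in KO libraries and 187 to 244 CPM in WT libraries, where Cd2 gave most of it. Of 9 NK markers 3 were higher and 0 lower (sum 73.1 to 115 CPM in KO, 91.4 to 124 CPM in WT), with Nkg7 at 2.74 ± 0.596, and Ncr1 at most 0.40 CPM in any library. KO replicate 4 also stood high for Nkg7 (23.08 CPM, against 4.72 to 8.12 in the other KO libraries). The same held for Cd3e (11.52, against 3.13 to 3.69) and Cd8a (8.67, against 1.8 to 3.02), whereas for Cd2 it was the lowest KO library (22.58). Most of the NK sum was Klrk1. Of 11 B-cell markers 3 were higher and 2 lower (sum 35.3 to 38.3 CPM in KO, 51.1 to 57.3 CPM in WT), and Pax5, the defining gene, was at 0 in all 8 libraries. Bank1 alone gave 7.23 to 14.3 CPM of that sum in KO and 35.6 to 38.4 CPM in WT libraries. Of 6 eosinophil markers tested 1 was higher and 2 lower, Siglecf (-2.31 ± 0.32) and Ear2 (-2.201 ± 0.301), while Epx and Ear6 were at 0 in all 8 libraries and the sum was 37.7 to 70 CPM in KO and 194 to 297 CPM in WT. Most of the eosinophil sum was Ear2. Of 6 innate lymphoid type 2 markers 0 were higher and 2 lower, Il1rl1 and Areg (-1.43 ± 0.29), while Il13 was at 0 and the sum was 58.5 to 116 CPM in KO and 232 to 314 CPM in WT. Most of it was Il1rl1. Of 10 neutrophil markers tested 1 was higher, the growth factor receptor Csf3r (2.77 ± 0.23), and 1 lower. S100a8 reached 0.75 CPM at most, and the neutrophil sum was 75.2 to 109 CPM in KO and 22.7 to 33.6 CPM in WT. Csf3r alone gave 58.9 to 94.3 CPM of that sum in KO and 6.86 to 13.2 CPM in WT libraries. Mast cell markers gave 1 higher and 0 lower of 8 (12.5% called), adipocytes 1 and 2 of 16 (18.8%) and mesothelium 0 and 0 of 10 (0%). Plasmacytoid dendritic cells gave 2 and 0 of 8 (25%), peritoneal macrophages 2 and 0 of 8 (25%) and erythroid cells 1 and 0 of 1 (100%). Of the lists before them, 37.5% of T-cell, 33.3% of NK, 45.5% of B-cell and 50% of eosinophil markers were called. For innate lymphoid type 2 and neutrophil markers the shares were 33.3% and 20%. Of all genes tested 26.8% were called. In bulk RNA fewer cells of a type and less RNA per cell cannot be told apart, and the part of such cells in the differences above was not tested.

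Depth overlapped between the genotypes, whereas the share of reads that fit more than 1 gene did not. Gene counts summed to 20662141 to 21949085 in KO libraries and 17941996 to 23832924 in WT libraries, with 14314 to 14784 and 14337 to 15018 genes detected. Reads outside genes took 5.16% to 6.86% in KO and 6.55% to 7.78% in WT libraries (exact permutation test, two-sided p = 0.171). The 10 largest genes took 12.1% to 13.9% of counts in KO and 13.6% to 16.6% in WT libraries (exact permutation test, two-sided p = 0.0571). Reads that fit more than 1 gene took 1.34% to 1.48% in KO and 1.16% to 1.28% in WT libraries. That difference reached 0.0286, the smallest two-sided p that 4 against 4 libraries allow (exact permutation test), and 0.171 after Benjamini-Hochberg adjustment over 6 library measures. With so few libraries these p-values do not show that the measures were alike, and their part in the gene differences was not tested.

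The difference between KO and WT cells was not the same on both diets. The same contrast on HFD called 5116 genes, 2504 higher in KO cells (18.6%) and 2612 lower (19.4%), and the interaction of genotype with diet, the SD difference minus the HFD difference, passed for 3877 genes (28.8%), 2013 of them positive (15%) and 1864 negative (13.9%). Counts of list members on HFD are to be read against these shares. No library is shared between the diets. Of the 1775 genes higher in KO cells on SD, 705 were also higher on HFD (39.7% of the SD list, 28.2% of the HFD list) and 311 were lower. Of the 1832 lower ones, 481 were lower on HFD as well (26.3% and 18.4%) and 420 were higher. On a principal component of all 32 libraries that held 12% of the variance, the WT SD libraries of both populations stood apart from the other 24, so every SD contrast contains that distance of the WT SD group. For 76.6% of the genes higher in KO on SD, WT SD had the lowest of the 4 CD11c+ group means. KO SD had the highest mean for 44.4% of them. For the lower genes, WT SD had the highest mean in 78.6% and KO SD the lowest in 36%. These genes were chosen by the difference between the same KO SD and WT SD libraries. That choice by itself puts WT SD or KO SD at an extreme for many of them. The shares therefore cannot show which group moved.

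**Figure D4:**
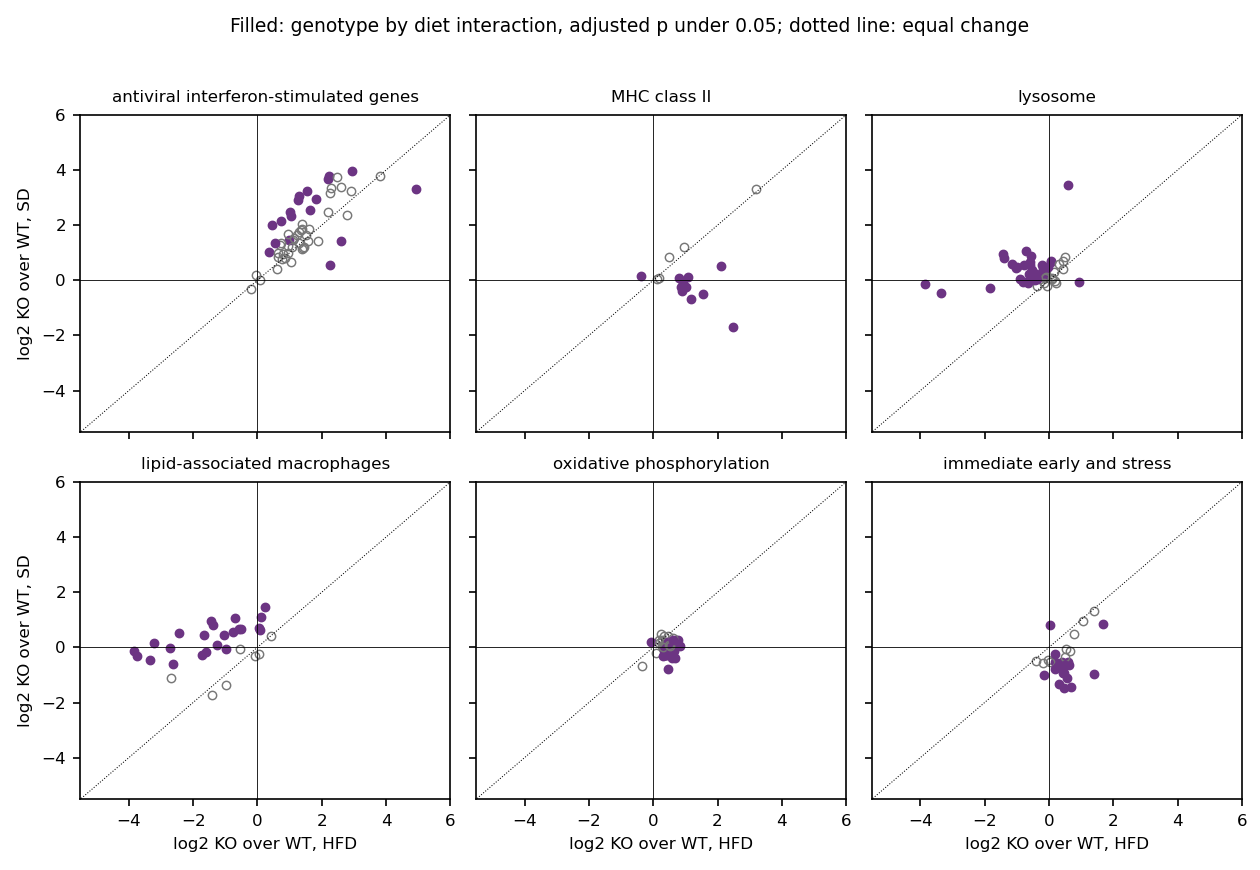
Log2 fold change of KO over WT in CD11c+ cells on HFD (horizontal) and on SD (vertical) for the tested members of 6 gene lists. Filled points passed the genotype by diet interaction at an adjusted p of 0.05, and the dotted line marks equal change. Antiviral genes lie along the line (median 1.64 on SD, 1.28 on HFD), whereas lipid-associated genes are spread along the horizontal (median 0.12 on SD, -1.14 on HFD).

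Interferon and MHC class I genes were higher in KO cells on both diets. On HFD, 51 of the 57 antiviral genes, all 16 GTPases and all 20 MHC class I genes were higher in KO cells and 0 were lower. The interaction passed for 18 of the 57 antiviral genes, 15 of them with the larger increase on SD. Irf7 rose more on SD than on HFD (log2 fold change 2.93 ± 0.24, adjusted p = 6.41e-11 on HFD, interaction 1.04 ± 0.32, adjusted p = 0.0121), while the differences for Cfb (-0.02 ± 0.36) and Relb (0.001 ± 0.17) did not pass. Of 21 acute-phase and complement genes 12 were higher on HFD and 3 lower, and 10 had a positive interaction and 1 a negative one. C1qa averaged 1635 ± 347 CPM in KO cells against 537 ± 138 CPM in WT cells on SD and 1993 ± 153 CPM in KO cells against 1626 ± 324 CPM in WT cells on HFD (interaction 1.31 ± 0.22, adjusted p = 3.39e-05).

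Lipid-associated and lysosomal genes differed between the diets. Of 30 lipid-associated genes 22 were lower in KO cells on HFD and 1 higher, and the interaction was positive for 23 and negative for 0. Gpnmb averaged 125 ± 60.4 CPM in KO cells against 112 ± 51.3 CPM in WT cells on SD and 251 ± 105 CPM in KO cells against 2311 ± 562 CPM in WT cells on HFD (interaction 3.37 ± 0.74, adjusted p = 0.000779). Cd36 averaged 1137 ± 137 CPM in KO cells against 1384 ± 404 CPM in WT cells on SD and 1609 ± 371 CPM in KO cells against 5366 ± 302 CPM in WT cells on HFD (interaction 1.45 ± 0.26, adjusted p = 9.65e-05). In both genes the WT HFD level stood far above the other 3 groups. Of 50 lysosomal genes, several of which are also on the lipid-associated list, 26 were lower on HFD and 6 higher. Their interaction was positive for 32 and negative for 1. Ctsb averaged 7249 ± 1019 CPM in KO cells against 3509 ± 579.9 CPM in WT cells on SD and 8747 ± 361 CPM in KO cells against 14310.0000 ± 809.7 CPM in WT cells on HFD (interaction 1.76 ± 0.16, adjusted p = 1.72e-09). Msr1, among the genes with the smallest interaction p, averaged 126 ± 17.5 CPM in KO cells against 30.1 ± 6.38 CPM in WT cells on SD and 135 ± 14.1 CPM in KO cells against 209 ± 21.99 CPM in WT cells on HFD (interaction 2.700 ± 0.22, adjusted p = 4.82e-10), a rise on SD and a fall on HFD. Others with the smallest p and a positive interaction were the small GTPase Rhoc (2.15 ± 0.15), the Ras regulator Rasa1 (2.31 ± 0.17), the prostaglandin D synthase Hpgds (3.95 ± 0.303), Tnfaip1 (1.43 ± 0.11) and Dcbld2 (2.75 ± 0.22).

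Il6, Retnla and H2-DMb2 had negative interactions. Il6 averaged 118 ± 54.2 CPM in KO cells against 329 ± 84.5 CPM in WT cells on SD and 56.8 ± 22.7 CPM in KO cells against 9.15 ± 2.03 CPM in WT cells on HFD, lower in KO cells on SD and higher on HFD (interaction -4.11 ± 0.53, adjusted p = 7.41e-07). Retnla averaged 4958 ± 2650.0000 CPM in KO cells against 18220.0000 ± 5172 CPM in WT cells on SD and 4358 ± 2871 CPM in KO cells against 1095 ± 475 CPM in WT cells on HFD (interaction -3.87 ± 0.596, adjusted p = 1.01e-05). H2-DMb2 averaged 43.7 ± 11.4 CPM in KO cells against 141 ± 40.5 CPM in WT cells on SD and 37.6 ± 15.7 CPM in KO cells against 6.78 ± 2.46 CPM in WT cells on HFD (interaction -4.15 ± 0.39, adjusted p = 4.07e-09). In all 3 the WT mean was the highest of the 4 CD11c+ groups on SD and the lowest on HFD. Of 16 MHC class II genes 13 were higher in KO cells on HFD and 10 interactions were negative, of 60 oxidative phosphorylation genes 53 were higher on HFD and 36 interactions were negative, and of 29 immediate early genes 18 interactions were negative. The smallest negative-interaction p-values belonged to Tspan32 (-3.16 ± 0.23), Ahcyl2 (-1.87 ± 0.14), Lilra6 (-3.495 ± 0.298), Hepacam2 (-4.302 ± 0.37), Pilrb2 (-2.29 ± 0.197) and St3gal4 (-2.05 ± 0.18).

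**Figure D5:**
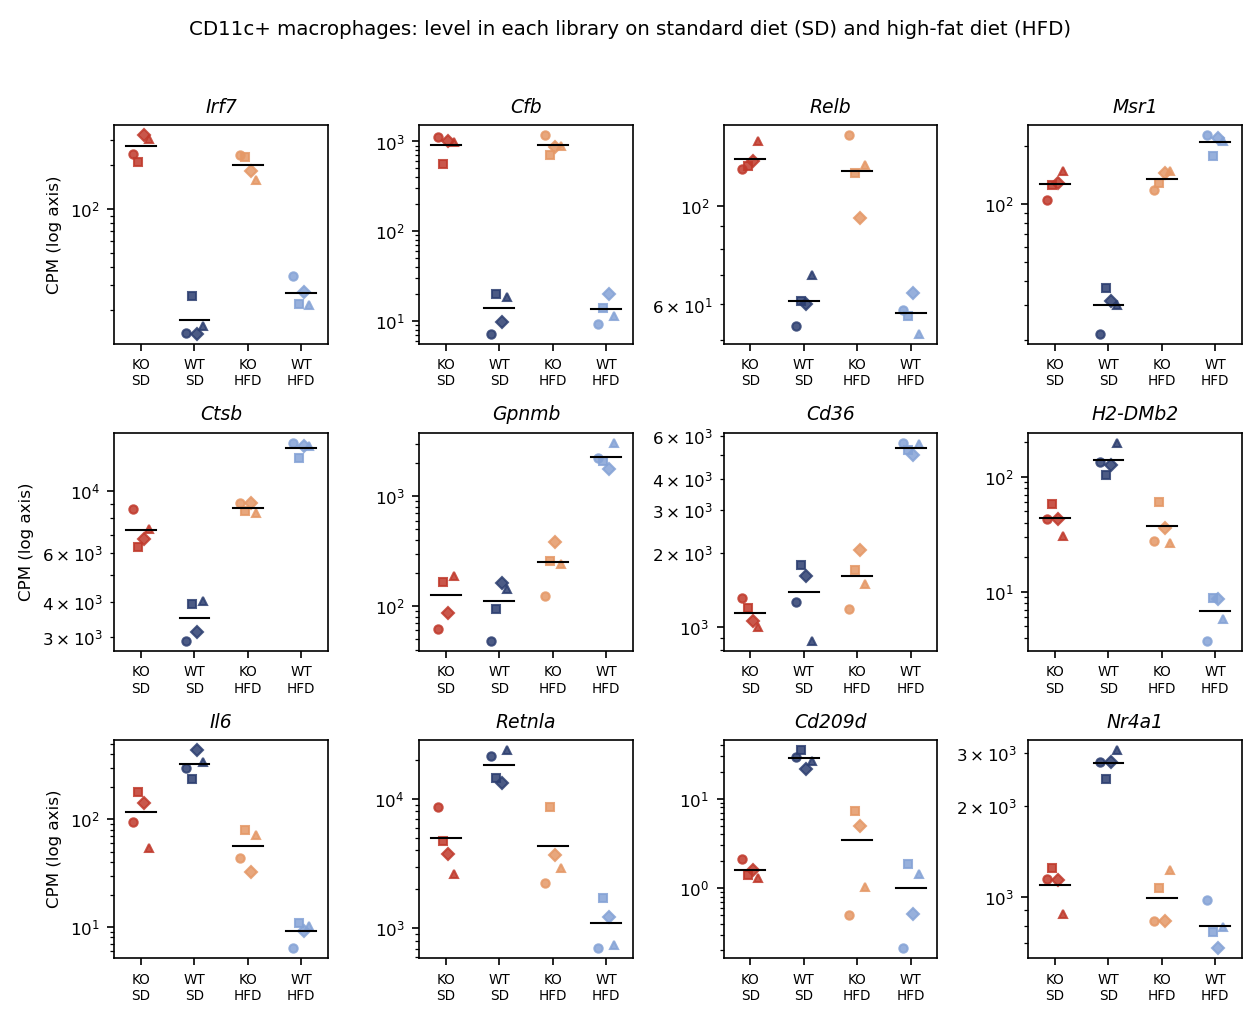
Levels of 12 genes in CPM (log axis) in CD11c+ libraries, 4 each of KO SD, WT SD, KO HFD and WT HFD from left to right, with symbols for replicate numbers (circle 1, square 2, diamond 3, triangle 4) and a line at the group mean. Irf7, Cfb and Relb show KO above WT on both diets, Msr1 and Ctsb show KO above WT on SD and below it on HFD, and Il6, Retnla and H2-DMb2 show the reverse.

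CD206+ cells of mice on the same diet showed many of the same differences. There the KO and WT contrast called 3300 genes, 1594 higher (11.8%) and 1706 lower (12.7%), of which 873 were higher in both populations (49.2% of the 1775 CD11c+ genes, 54.8% of the CD206+ ones) and 768 lower in both (41.9% and 45%), while 35 and 27 moved in opposite directions. The interaction of genotype with population, the CD11c+ difference minus the CD206+ difference, passed for 884 genes (6.57%), 551 positive (4.1%) and 333 negative (2.48%). Libraries of the 2 populations with the same number deviated together (r from 0.143 to 0.323 over genes, and each CD11c+ library matched its own number best), and with genotype and number as a replicate block the interaction passed for 1480 genes, 683 positive and 797 negative. On CD206+ cells 52 of the 57 antiviral genes were higher and 1 lower, and all 16 GTPases were higher.

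Interaction values for single genes and lists are from the fit without the block, and all 15 genes given below kept their call and direction with it (largest adjusted p = 0.00495, edgeR). Some differences were larger in CD11c+ cells. Aoah, which degrades bacterial lipopolysaccharide, averaged 146 ± 29.7 CPM in KO cells against 12.1 ± 4.16 CPM in WT cells in CD11c+ cells (log2 fold change 3.59 ± 0.19, adjusted p = 1.92e-14) and 294 ± 34.2 CPM in KO cells against 103 ± 6.43 CPM in WT cells in CD206+ cells (log2 fold change 1.52 ± 0.17, adjusted p = 6.3e-08, interaction 2.08 ± 0.24, adjusted p = 4.54e-06). Maf averaged 42.1 ± 8.23 CPM in KO cells against 11.7 ± 2.69 CPM in WT cells in CD11c+ and 150.2 ± 14.6 CPM in KO cells against 135 ± 13.9 CPM in WT cells in CD206+ cells (interaction 1.69 ± 0.19, adjusted p = 4.54e-06), so its rise was seen in the CD11c+ contrast while the CD206+ change did not pass (log2 fold change 0.16 ± 0.13, adjusted p = 0.425). Tlr7 (1.502 ± 0.18), Tfec (3.25 ± 0.31), Fam213b (1.78 ± 0.18) and Clmp (1.43 ± 0.17) were the other genes with the smallest p and a positive interaction. The complement genes C1qa (1.33 ± 0.22) and Cfb (1.45 ± 0.35) were also more strongly raised in CD11c+ cells. Of 35 resident and alternatively activated genes 11 had a positive interaction and 0 a negative one, and with the block 16 and 4. In CD206+ cells 2 genes of this list were higher in KO cells and 15 lower, against 12 and 10 in CD11c+ cells. A positive interaction here can therefore also come from a fall in CD206+ KO cells. In the other direction, Nr4a2, an immediate early nuclear receptor, averaged 207 ± 20.3 CPM in KO cells against 407 ± 49.6 CPM in WT cells in CD11c+ cells and 167 ± 25.7 CPM in KO cells against 73.3 ± 20.1 CPM in WT cells in CD206+ cells (interaction -2.16 ± 0.32, adjusted p = 9.93e-05). Ccl5 rose more in CD206+ cells (interaction -1.69 ± 0.44, adjusted p = 0.0173). Slc13a3 (-1.99 ± 0.297), the niacin receptor Hcar2 (-2.78 ± 0.42), Cd52 (-1.602 ± 0.24), and the death regulators Bid (-0.96 ± 0.14) and Pmaip1 (-1.42 ± 0.22) had the smallest p among the remaining negative interactions.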

How the data were processed

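RNA of sorted macrophages was sequenced in 32 libraries, 4 in each of 8 groups. The authors deposited whole-number read counts per gene symbol, 1 table a library. The submitters' processing notes name FastQC 0.11.4, Trimmomatic 0.35, TopHat2 2.1.0, SAMtools 0.1.18 and the builds mm10 and GRCm38. The counting program, annotation and strand setting are not stated in the labels or tables, so overlapping and antisense genes cannot be told apart. The 5 summary entries that name no gene were left out of totals and tests (reads outside genes took 5.16% to 7.78% in the 8 libraries). Of 24421 genes, 13453 passed filterByExpr (minimum count 10) over all 32 libraries.

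Counts were scaled by TMM and fitted with edgeR 4.0.16 (R 4.3.3; limma 3.58.1) as 8 group means over all 32 libraries, which share 1 estimate of spread. KO minus WT, its change beyond 2-fold (glmTreat), and its interactions with diet and with population were tested by quasi-likelihood with Benjamini-Hochberg adjustment over all genes. Log2 fold changes are KO over WT, ± the standard error. CPM are counts per 1000000 counts of the TMM-scaled library, not corrected for gene length, and group values are means ± SD (n = 4). The fit was tested on simulated counts. DESeq2 1.42.0, other scalings, no filter, fits of the compared groups alone, a replicate block and each library left out were tried.

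Replicate numbers of CD11c+ and CD206+ libraries on SD were taken as paired, since same-numbered libraries deviated together in every pair (r of 0.143 to 0.323). The interaction with population was still fitted without the block, as designed, and the blocked values stand beside it. The members and the 52 gene lists were chosen with earlier results of these data known. Of their genes, 49 were not tested because of low counts. Genes named in the text are the deleted and identity genes, chosen anchors of each list, up to 4 called members of a list with the largest change, the 12 largest changes in each direction among genes that did not overlap between groups and averaged at least 10 CPM in either group, and the 6 smallest interaction p-values in each direction. Some genes that this rule selects are not reported here.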

Additional observations from a re-analysis of the deposited data

Results flagged for a closer look

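In 9 of 96 groups of 4 values 1 library stood far from the other 3, by a gap that took most of the group's range (Dixon's test at the 95% level), and chance alone gives about 1 in 20. Among KO libraries, replicate 4 was high for Cd40 (gap 0.87) and Cxcl10 (0.837), and 1 library was high for the share of reads in the 10 largest genes (0.889). Among WT libraries, replicate 4 stood apart for Cpt1a (0.897) and was high for Fpr1 (0.861), replicate 2 was high for Irf7 (0.855) and Saa3 (0.898) and low for Lyz1 (0.852), and replicate 3 was high for Ifit1 (0.849).

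The genotype difference itself differed between diets, by the interaction test (edgeR quasi-likelihood, log2 difference on SD minus that on HFD), for Ahcyl2 (-1.87), C1qa (1.31), Cd36 (1.45), Ctsb (1.76), Dcbld2 (2.75), Gpnmb (3.37), H2-DMb2 (-4.15), Hepacam2 (-4.302), Hpgds (3.95), Il6 (-4.11), Irf7 (1.04), Lilra6 (-3.495), Lyz2 (-0.91), Msr1 (2.700), Pilrb2 (-2.29), Rasa1 (2.31), Retnla (-3.87), Rhoc (2.15), St3gal4 (-2.05), Tnfaip1 (1.43), Tspan32 (-3.16). It differed between populations on SD (CD11c+ minus CD206+) for Aoah (2.08), Bid (-0.95), C1qa (1.33), Ccl5 (-1.69), Cd52 (-1.602), Cfb (1.45), Clmp (1.43), Fam213b (1.77), Hcar2 (-2.78), Maf (1.69), Nr4a2 (-2.16), Pmaip1 (-1.42), Slc13a3 (-1.99), Tfec (3.25), Tlr7 (1.502).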

How the results depend on the processing

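The SD contrast called 2655 to 3904 genes over all alternatives, against 3607, with DESeq2 at 3904, the replicate block at 2655, fits of the compared groups alone at 2671 and single libraries left out at 3003 to 3506. The count beyond 2-fold was 339 to 447, against 426. The interaction with diet passed for 3362 to 4108 genes, against 3877. The interaction with population passed for 647 (without WT replicate 1) to 1224 (DESeq2) genes outside the block, against 884. With the paired replicate block it passed for 1480, and 46.1% of those were positive, against 62.3% without the block, 50.3% in the 16 SD libraries alone and 71.3% under upper quartile scaling. In KO and WT the replicate numbers did not pair the libraries (r of 0.0285 to 0.126), so that block is given only here. The difference in genes detected (-55.8) turned to 46.2 without KO replicate 1 and 58.4 without WT replicate 2, within -169 to 58.4 over all libraries left out. Pattern-recognition genes gained 1 or 2 lower members under RLE or upper quartile scaling or DESeq2, acute-phase genes gained 1 without KO replicate 1, and the 1 endothelial gene that was higher was lost in 5 alternatives. Fitted alone, the 8 libraries also called Birc3 (0.28), Cd9 (-0.60) and Egr1 (-0.54), and Tnip3 was not called with no filter on low counts (-0.65). The cause of these changes was not tested. With 4 libraries a group, genes near 0 in WT cells have imprecise fold changes.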

Other observations

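Within 5 Mb of Tnfaip3 on chromosome 10, 8 of 34 tested genes passed the SD contrast (23.5%), and within 5 Mb of Lyz2, on the same chromosome, 12 of 44 did (27.3%), against 28.3% of the tested genes on chromosome 10 and 26.8% of all genes tested.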
